A study of Arabidopsis thaliana with 18 samples.

Results

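The transcripts of developing seeds were compared between 3 libraries titled AtBDtr, from the badc1/badc3 double knockout of Arabidopsis thaliana, and 3 libraries titled AtWTtr, from the wild type Col-0. These 6 of the 18 samples of the study were chosen by their titles alone, and all 33602 loci of the count table entered, of which 19376 had enough counts to be tested. All plants grew under 16 h of light per day and all seeds were taken 9 to 10 days after flowering, with no further treatment. The mutant was made by crossing T-DNA insertion lines of BADC1 and BADC3. The study also describes transgenic plants of both genotypes that carry HF-RPL18, a ribosomal protein L18 with a histidine-FLAG tag under the soybean glycinin promoter in the vector pBinGlyRed3, from which tagged ribosomes were pulled down after screening for DsRed fluorescence. No label says what "tr" stands for or which libraries carry that transgene, and the sample labels give total RNA with a polyA kit for all of them. Where a transgenic line was used, a difference between lines and a difference between genotypes cannot be told apart. The labels do not say whether the 3 libraries of a group came from separate plants. The p-values thus measure only the spread between libraries, which may be technical. That spread was estimated over 12 libraries, these 6 and those titled AtWT and AtBD.

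The plastid acetyl-CoA carboxylase makes malonyl-CoA, the building block of fatty acids, and is the entry into seed oil synthesis. It consists of a biotin carboxylase, a biotin carrier that shuttles the carboxyl group, and a carboxyltransferase of an alpha and a beta subunit. BADC proteins look like the biotin carrier but bind no biotin, and they hold the enzyme back by taking the carrier's place in the complex. Developing Arabidopsis seeds are green: their embryos run photosynthesis while they fill with oil and storage protein, and lose it as they pass into desiccation.

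The 6 libraries held 16977673 to 26037413 counts on genes and 17987 to 19984 loci with at least 1 count. Levels are given as CPM, counts scaled to a common depth with library totals adjusted by edgeR's TMM method. The 10 most abundant genes took 46% to 55.4% of the counts of a library. The labelled tissue matched its markers. The 12S cruciferin CRA1 had 44330 to 84920 CPM, the oleosin OLEO1 28610 to 53860, and the embryo regulators FUS3 and ABI3 76.7 to 85.2 and 255 to 351. LEC1, a regulator of earlier embryo stages, had 0 to 1.23 CPM. Markers of neighbouring tissues were present at similar summed levels in both groups. Of the 18 seed coat genes, TT12 was at 0 in all 6 libraries. The 16 tested summed to 630 to 1116 CPM in AtWTtr and 662 to 1084 in AtBDtr. Most of this was TT4, with 506 to 930 CPM in AtWTtr and 536 to 941 in AtBDtr. SBT1.7 had 77.6 to 119 CPM over the 6 libraries, whereas BAN had 0 to 0.441 and TT2 0 to 0.606. The 9 silique wall genes summed to 21.4 to 23.6 CPM in AtWTtr and 19.6 to 23.9 in AtBDtr. Of the 8 endosperm genes MPC, FIS2 and PHE1 were at 0. The sum of the 4 tested, 5925 to 16290 CPM in AtWTtr and 8579 to 13490 in AtBDtr, came almost wholly from EPR1. The RPL18B gene (AT3G05590), for ribosomal protein L18, stood at 16460, 18150 and 26590 CPM in AtWTtr and at 21070, 18610 and 17620 in AtBDtr. The AtWT and AtBD libraries of the same table, whose titles lack "tr", had 863 to 1145 CPM, so all 6 tr libraries were far above all 6 others. Reads of an RPL18 transgene and of the gene itself cannot be told apart in a count per gene. RPL18C, a second copy, lay between 275 and 430 CPM in the tr libraries.

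Single tr libraries differed more than single libraries without "tr". The median over genes of the SD of log2 CPM was 0.41 in AtWTtr and 0.37 in AtBDtr, against 0.27 in AtWT and 0.28 in AtBD, and 67.9% of genes had a larger mean SD in the tr groups. Sister libraries correlated (Pearson's r across genes, which are not independent) at 0.912 to 0.947 in AtWTtr and 0.929 to 0.950 in AtBDtr. Pairs of an AtWTtr and an AtBDtr library spanned 0.891 to 0.958, so some libraries resembled one of the other genotype more than a sister. The same occurred without "tr": AtWT1 correlated at 0.963 with AtBD2 and at 0.944 with its sister AtWT2. A principal component analysis of the 1000 most variable genes put 50.9% of the variance on a first component that cut across genotype. Its scores were -65.9, 26.1 and -7.4 for AtWTtr1 to 3 and 47.4, 17 and -17.1 for AtBDtr1 to 3. AtWTtr1 and AtBDtr1, which share a replicate number, lay at opposite ends.

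**Figure D1:**
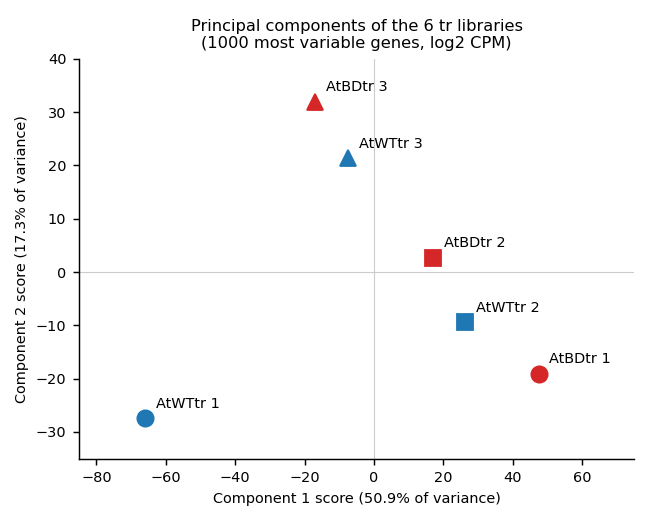
Scores of the 6 tr libraries on the first 2 principal components of log2 CPM of the 1000 most variable genes. Blue points are AtWTtr and red points AtBDtr, and circles, squares and triangles are replicates 1, 2 and 3. The first component, with 50.9% of the variance, runs from AtWTtr1 at -65.9 to AtBDtr1 at 47.4 and mixes the genotypes in between.

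Genes of late maturation rose along this order, and genes of photosynthesis were lower at its end than at its start. The component came from the most variable genes of the same libraries. These may include members of both lists, so the order is not independent of them. All 15 tested genes of late maturation and desiccation were highest in AtBDtr1, and all 43 nuclear photosynthesis genes and all 14 genes of Rubisco and the Calvin cycle were lowest there. The mean log2 CPM of the late maturation genes was 6.09, 8.46 and 7.32 in AtWTtr1 to 3 and 9.35, 7.40 and 6.17 in AtBDtr1 to 3. That of the photosynthesis genes was 7.56, 5.87 and 7.41 in AtWTtr and 4.23, 5.99 and 6.52 in AtBDtr. AtBDtr1 and AtWTtr2 were thus high in the first and low in the second, and AtWTtr1 the reverse. Some single libraries, paired after their levels were seen, were close in late maturation level: AtBDtr3 and AtWTtr1, and AtBDtr2 and AtWTtr3. In photosynthesis genes AtBDtr3 lay below AtWTtr1, and AtBDtr2 below AtWTtr3, by over 1 log2 unit each. Each pair is 1 library against 1. Sister libraries spread further in these genes, over 5.87 to 7.56 in AtWTtr and 4.23 to 6.52 in AtBDtr. AtWTtr2 and AtBDtr1 were less close in late maturation level, at 8.46 and 9.35. The part of seed stage in these values was not tested. RAB18 (AT5G66400), a dehydrin induced by abscisic acid, had 273, 1936 and 594 CPM in AtWTtr and 2607, 630 and 183 in AtBDtr. EM6 (AT2G40170), a late embryogenesis protein of group 1, spanned 2.67 to 116 CPM in AtWTtr and 3.97 to 601 in AtBDtr. The ranges of the AtWTtr and AtBDtr libraries overlapped in both genes.

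Of the 10 tested heat shock genes, several of which are switched on in late seed maturation without heat, 8 were highest in AtBDtr1, while the lowest library varied between members. HSP17.4 (AT3G46230), a small cytosolic chaperone, had 12, 138 and 68.0 CPM in AtWTtr and 454, 60.7 and 9.20 in AtBDtr. It was among the 4 genes furthest below both sisters in AtWTtr1 and AtBDtr3 and among the 4 furthest above them in AtBDtr1. PSAF (AT1G31330), a subunit of photosystem I, ran the other way with 298, 68.4 and 271 CPM in AtWTtr and 22, 85.5 and 134 in AtBDtr. LHCB1.3 (AT1G29930), a chlorophyll-binding antenna protein with near-identical copies, had 1659, 325 and 1245 CPM in AtWTtr and 95.5, 411 and 622 in AtBDtr. The lowest AtWTtr library lay below 2 of the 3 AtBDtr libraries in both genes, so the groups overlapped. Cell division genes, at a summed level of 2.66 to 29.7 CPM over 16 genes, were low in AtBDtr1, AtBDtr2 and AtWTtr2.

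**Figure D2:**
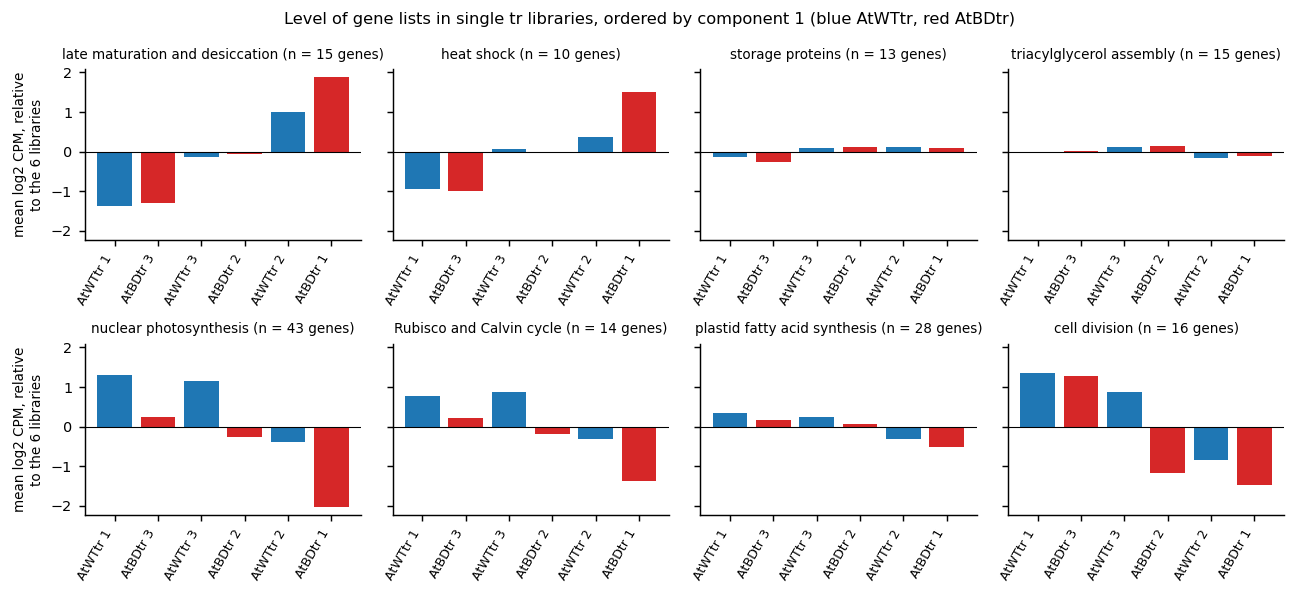
Mean log2 CPM of 8 gene lists in each tr library, relative to the mean of the 6 libraries and ordered by the first component (blue AtWTtr, red AtBDtr). Late maturation genes step up from AtWTtr1 to AtBDtr1. Photosynthesis and Calvin cycle genes are lowest in AtBDtr1 but do not fall in steps: they are higher in AtWTtr3 than in AtBDtr3, which stands before it, whereas storage protein and triacylglycerol assembly genes stay nearly level.

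The sequences upstream of these genes are shown for 4 examples, as members of the late maturation, heat shock and photosynthesis lists with large differences between libraries. Each run is the 250 bases before the annotated gene start in RefSeq's TAIR10.1, read 5′ to 3′ on the gene's strand, with the motif named below in capitals on either strand.
RAB18: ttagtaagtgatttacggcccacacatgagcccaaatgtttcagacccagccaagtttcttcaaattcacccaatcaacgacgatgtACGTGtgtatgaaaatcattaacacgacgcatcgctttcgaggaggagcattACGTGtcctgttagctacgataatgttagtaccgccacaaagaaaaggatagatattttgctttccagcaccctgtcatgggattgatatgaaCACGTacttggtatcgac
LEA25: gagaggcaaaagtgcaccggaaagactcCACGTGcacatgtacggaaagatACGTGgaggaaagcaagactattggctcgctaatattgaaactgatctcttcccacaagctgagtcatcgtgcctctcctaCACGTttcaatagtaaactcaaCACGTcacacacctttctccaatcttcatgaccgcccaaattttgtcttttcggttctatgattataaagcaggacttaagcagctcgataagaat
HSP17.4: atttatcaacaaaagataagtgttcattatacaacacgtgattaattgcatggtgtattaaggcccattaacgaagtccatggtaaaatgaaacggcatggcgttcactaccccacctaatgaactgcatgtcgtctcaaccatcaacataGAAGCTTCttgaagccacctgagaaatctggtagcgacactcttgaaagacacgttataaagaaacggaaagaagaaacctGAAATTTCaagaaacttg
PSAF: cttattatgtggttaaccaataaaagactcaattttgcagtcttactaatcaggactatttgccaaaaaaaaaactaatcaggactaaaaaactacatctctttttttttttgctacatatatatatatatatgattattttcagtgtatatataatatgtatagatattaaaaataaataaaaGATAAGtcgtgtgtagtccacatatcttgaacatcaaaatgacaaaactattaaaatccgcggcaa

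The windows lie on the minus strand at chr5:26519448-26519697 for RAB18, chr2:17716913-17717162 for LEA25 (AT2G42560, a late embryogenesis protein), chr3:16984868-16985117 for HSP17.4 and chr1:11216142-11216391 for PSAF. The capitals mark ACGTG, the core of the abscisic acid response element, in RAB18 and LEA25, GAANNTTC, a unit of the heat shock element, in HSP17.4, and GATAAG, the I-box of light-regulated genes, in PSAF. RAB18 held 3 and LEA25 5 matches of ACGTG, counting both strands, so that CACGTG counts on each. Of the promoters of the late maturation genes 14 of 15 (93.3%) held ACGTG, against 23.1% of 26711 promoters of the same length. It was also in 18 of 43 promoters of photosynthesis genes (41.9%), whose levels ran the other way, and in 3 of 10 of heat shock genes (30%), HSP17.4 with 3 matches among them. GATAAG was in 11 of 43 promoters of photosynthesis genes (25.6%) against 12.2% of all, in 1 of 15 of late maturation genes (6.67%) and in 1 of 10 of heat shock genes (10%). GAANNTTC was in 3 of 10 promoters of heat shock genes (30%) against 9.47% of all, in 2 of 15 of late maturation genes (13.3%) and in 1 of 43 of photosynthesis genes (2.33%). A match describes the letters in the window and not a bound site.

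The genotype comparison called 10 of 19376 genes (0.0516%), 3 higher (0.0155%) and 7 lower (0.0361%) in AtBDtr (edgeR's quasi-likelihood test, Benjamini-Hochberg adjusted p under 0.05). Its spread was pooled over 12 libraries, with a biological coefficient of variation of 0.318. This was 0.336 in a fit of the 6 tr libraries alone and 0.267 in the 6 others. With the 6 tr libraries alone 5 of 16436 genes were called, all among the 10. At an unadjusted p under 0.05 there were 986 genes (5.09%), 404 higher (2.09%) and 582 lower (3%). The groups did not overlap for 7.19% of the genes, 4.25% with AtBDtr higher and 2.94% with AtBDtr lower. In AtBD against AtWT, with the same number of libraries, they did not overlap for 19.7%, and 12 genes (0.0619%) were called. The median log2 fold change over all genes was 0.01 and 51.2% of the genes were above 0.

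Both knocked-out genes were nearly silent in every AtBDtr library, which checks the labels. BADC3 (AT3G15690, chromosome 3, 5316916 to 5320121 of TAIR10.1, plus strand) had 98.9, 65.6 and 90.8 CPM in AtWTtr1 to 3 and 0.235, 0.461 and 0.110 in AtBDtr1 to 3. These were 3, 8 and 2 counts, or 0.276%, 0.542% and 0.130% of the wild-type mean. BADC1 (AT3G56130, chromosome 3, 20826576 to 20829270, plus strand) had 72.0, 42.3 and 62.9 CPM in AtWTtr and 3.13, 2.19 and 1.32 in AtBDtr, or 5.30%, 3.71% and 2.24% of the wild-type mean. The log2 fold changes were -8.28 (SE 0.51) for BADC3 and -4.76 (SE 0.31) for BADC1, each with an edgeR adjusted p of 6.06e-07. In both genes AtWTtr2 was the lowest of the wild-type libraries and still far above the mutant.

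The remaining subunits and partners of the carboxylase overlapped between the groups. BADC2 (AT1G52670), the third family member, had 259, 152 and 250 CPM in AtWTtr and 128, 231 and 232 in AtBDtr, a log2 fold change of -0.16 (SE 0.25). AtWTtr2 and AtBDtr1 were the low libraries, 1 in each genotype. BCCP2 (AT5G15530), the main biotin carrier of seeds, had 585, 336 and 585 CPM in AtWTtr and 289, 433 and 423 in AtBDtr (-0.40, SE 0.23), and the other carrier BCCP1 had -0.45 (SE 0.29). The biotin carboxylase CAC2 (-0.10, SE 0.23), the carboxyltransferase alpha subunit CAC3 (-0.15, SE 0.21), the envelope protein CTI1 that docks the enzyme (-0.33, SE 0.22) and the PII protein GLB1, which binds the carrier (-0.40, SE 0.28), were also below 0. Their edgeR adjusted p lay at 0.982 to 0.992. The plastid-encoded beta subunit accD had no count in 5 of the 6 tr libraries and 0.231 CPM in AtBDtr2, so no difference was detectable. All plastid-encoded genes together took 0.000409% to 0.00406% of the counts of a tr library. In the AtWT and AtBD libraries they took 0.0121% to 0.142%. The list's median, with the knocked-out BADC1 and BADC3 counted in it, was -0.36. It was 0.02 without AtWTtr1 and AtBDtr1, the libraries at both ends of the first component. Of the list's 10 members 2 passed the test, both lower, namely the knocked-out genes.

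**Figure D3:**
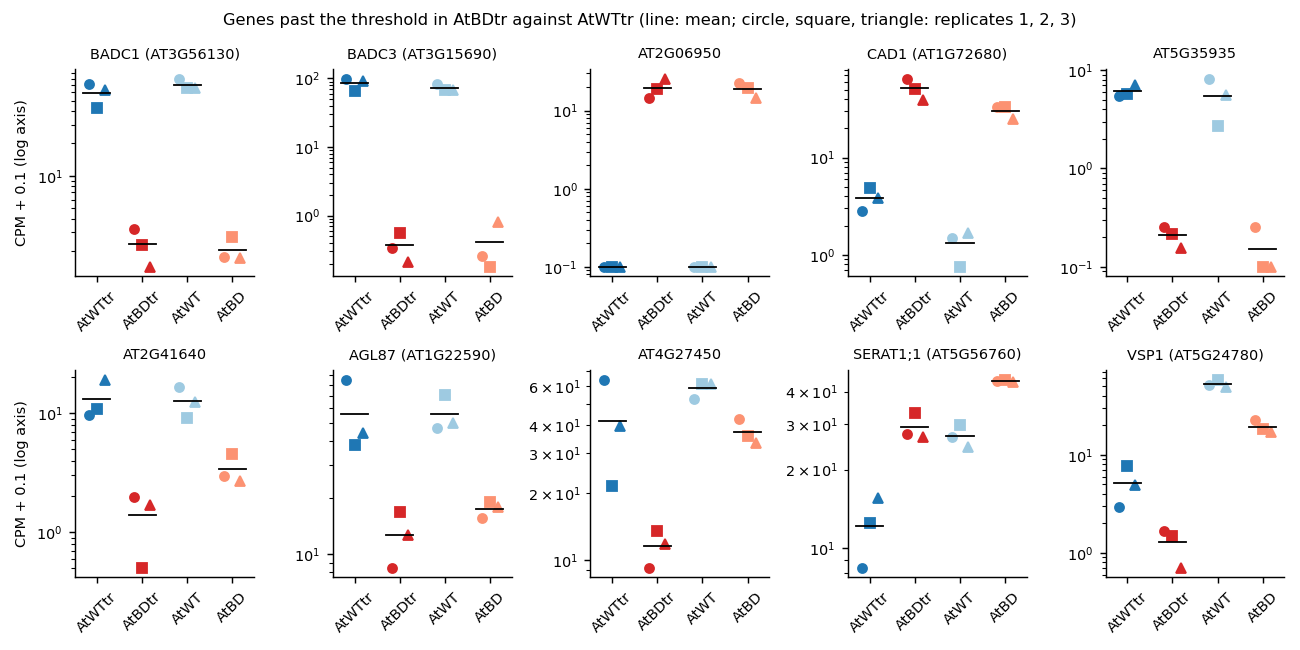
CPM plus 0.1 on a log axis for the 10 genes called in AtBDtr against AtWTtr, in each of the 12 libraries of the table (circle, square and triangle for replicates 1, 2 and 3, line for the mean of 3). In each gene the 3 AtBDtr libraries lie wholly above or wholly below the 3 AtWTtr libraries.

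Of the other 8 called genes, CAD1 (AT1G72680, chromosome 1, 27359109 to 27361024, minus strand), a member of the cinnamyl alcohol dehydrogenase family that reduces aldehydes to alcohols, rose most among those expressed in both groups. It had 2.73, 4.82 and 3.78 CPM in AtWTtr and 64.5, 50.4 and 39.2 in AtBDtr. The log2 fold change was 3.76 (SE 0.31, edgeR adjusted p = 6.65e-06), beside 4.63 in AtBD against AtWT. AT2G06950, annotated as a pseudogene on chromosome 2 (2859226 to 2863434, minus strand), had 0 counts in all 3 AtWTtr libraries and 186, 325 and 464 in AtBDtr, or 14.6, 18.8 and 25.6 CPM. Against a floor of 3 counts over the AtWTtr group it was at least 291-fold higher (edgeR adjusted p = 3.64e-06), where counting error alone is covered by the floor. A second pseudogene, AT5G35935 on chromosome 5 (14083388 to 14089891, minus strand), went the other way with 5.33, 5.58 and 6.99 CPM in AtWTtr and 0.156, 0.115 and 0.055 in AtBDtr (-5.76, SE 0.76, edgeR adjusted p = 0.00368). Its AtBDtr values are 2, 2 and 1 counts.

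SERAT1;1 (AT5G56760, chromosome 5, 22961229 to 22962713, minus strand), a cytosolic serine acetyltransferase that supplies O-acetylserine for cysteine synthesis, was the third gene that rose. It had 8.27, 12.3 and 15.4 CPM in AtWTtr and 27.3, 33.0 and 26.7 in AtBDtr, and the gap between the groups exceeded the range within either. The log2 fold change was 1.27 (SE 0.21, edgeR adjusted p = 0.0360). Among the 27 tested genes of sulfur assimilation and limitation SERAT1;1 alone was called, 18 were above 0 and the median was 0.15. APR2, an APS reductase of the same pathway, had 3.21, 5.97 and 4.62 CPM in AtWTtr and 14.5, 5.83 and 4.96 in AtBDtr, a difference carried by AtBDtr1.

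AT2G41640 (chromosome 2, 17360374 to 17363788, plus strand), a glycosyltransferase of family 61, fell from 9.50, 10.8 and 19.0 CPM in AtWTtr to 1.88, 0.404 and 1.60 in AtBDtr, with a log2 fold change of -3.36 (SE 0.46, edgeR adjusted p = 0.00507). AGL87 (AT1G22590, chromosome 1, 7981722 to 7984334, plus strand), a MADS-box transcription factor of the AGAMOUS-like family, fell from 84.9, 38.1 and 44.0 CPM to 8.37, 16.6 and 12.6 (-2.15, SE 0.31, edgeR adjusted p = 0.00903). In AGL87 the highest AtWTtr and the lowest AtBDtr libraries were AtWTtr1 and AtBDtr1, the ends of the first component, and without both its edgeR adjusted p was 0.0520.

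VSP1 (AT5G24780, chromosome 5, 8507590 to 8509201, minus strand), a vegetative storage protein and a marker of jasmonate response, fell from 2.87, 7.58 and 4.83 CPM in AtWTtr to 1.56, 1.38 and 0.606 in AtBDtr (-2.13, SE 0.36, edgeR adjusted p = 0.0360). Its neighbour and close paralog VSP2 (AT5G24770), which may share reads with it, had 20.2, 23.9 and 36.4 CPM in AtWTtr and 11.8, 17.4 and 6.45 in AtBDtr, without overlap but short of the threshold (-1.17, SE 0.29, edgeR adjusted p = 0.704). Of 22 tested jasmonate genes VSP1 alone was called, 14 were above 0 and the median was 0.20. The JAZ repressor JAZ10 had 7.52, 8.03 and 10.2 CPM in AtWTtr and 12.5, 14.0 and 11.3 in AtBDtr, also without overlap and opposite in sign to the VSP genes.

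AT4G27450 (chromosome 4, 13727370 to 13729002, minus strand), annotated as an aluminum induced protein and a member of the core set of genes induced by low oxygen, fell from 64.0, 21.4 and 39.6 CPM in AtWTtr to 9.15, 13.4 and 11.7 in AtBDtr (-1.86, SE 0.30, edgeR adjusted p = 0.0291). The AtWTtr libraries spread far more than the AtBDtr libraries. SAD6 (AT1G43800), a stearoyl-ACP desaturase induced by low oxygen, had 73.5, 18.4 and 55.7 CPM in AtWTtr and 5.08, 13.5 and 15.9 in AtBDtr, without overlap and short of the threshold (-2.09, SE 0.48, edgeR adjusted p = 0.704). Of 24 tested hypoxia genes 1 was called and 21 were below 0, with a median of -0.36. The groups did not overlap for 4 of them, all lower. This is 16.7%, against 2.94% of all genes on the lower side and 7.19% in either direction. The median of the hypoxia genes stayed between -0.51 and -0.27 when any 1 tr library was left out. It was -0.37 without both ends of the first component. In AtBD against AtWT it was -0.13, with 9 of 24 above 0. AT4G27450 was also the 1 lower call in the list of low sugar and dark markers, so the 2 lists share this call. The median of the low sugar and dark list was 0.01 in AtBDtr against AtWTtr, with 10 of 19 tested members above 0.

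Of the 10 calls 4 were lost when 1 tr library was left out, AGL87 with 1 library and the others with any of 5, while their log2 fold changes kept their sign. AGL87 had an edgeR adjusted p of 0.0590 without AtBDtr3, at a log2 fold change of -2.15 as with all libraries. AT4G27450 had 0.0885 and 0.0930 without AtWTtr1 or AtWTtr3 and 0.149, 0.117 and 0.0681 without AtBDtr1, AtBDtr2 or AtBDtr3, at log2 fold changes of -1.99 to -1.43. VSP1 had 0.130 and 0.0982 without AtWTtr2 or AtWTtr3 and 0.0592, 0.164 and 0.0842 without AtBDtr1, AtBDtr2 or AtBDtr3, at -2.36 to -1.73. SERAT1;1 had 0.179 and 0.134 without AtWTtr1 or AtWTtr2 and 0.105, 0.288 and 0.0681 without AtBDtr1, AtBDtr2 or AtBDtr3, at 1.05 to 1.32. The other 6 called genes stayed past the threshold when any 1 tr library was left out.

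All 10 called genes had the same sign in AtBD against AtWT. In that comparison too no gene of the 10 overlapped between its groups, where 19.7% of all genes did not overlap. BADC1, BADC3, CAD1, AT2G06950 and AT5G35935 were called in both, which is 50% of the calls among the tr libraries and 41.7% of the 12 calls there. AGL87 had -1.68, AT2G41640 -1.93, VSP1 -1.46, SERAT1;1 0.71 and AT4G27450 -0.65 in AtBD against AtWT and were not called. The test of the difference between the 2 genotype effects called 0 of 19376 genes in edgeR, with 790 (4.08%) at an unadjusted p under 0.05. AT4G27450 had the lowest unadjusted p of the difference among the 10, 0.00902, for a difference of -1.21 (SE 0.41). VSP1 stood at 49.5 to 58.1 CPM in AtWT, far above its 2.87 to 7.58 CPM in AtWTtr.

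Nuclear photosynthesis genes had the lowest median of the 27 lists described, -1.20, and 0 of 43 tested members were above 0, where 51.2% of all genes were. Yet none was called, while 26 had an unadjusted p under 0.05 on the lower side (3% of all genes had). The members moved together, all 43 lowest in AtBDtr1. They are thus not independent, and such counts do not stand for replicates of the genotypes. The groups did not overlap for 2 members, both lower. This is 4.65%, against 2.94% of all genes on the lower side and 7.19% in either direction. LHCB2.2, an antenna protein of photosystem II with a near-identical copy, had 49.5, 5.97 and 50.6 CPM in AtWTtr and 0.860, 3.75 and 9.04 in AtBDtr (-2.93, SE 0.86, edgeR adjusted p = 0.968). AtWTtr2 lay below AtBDtr3. PSBR, of the oxygen-evolving part of photosystem II, had 909, 340 and 842 CPM in AtWTtr and 133, 400 and 376 in AtBDtr (-1.20, SE 0.39). PSAD2, a photosystem I subunit, had 162, 58.3 and 99.3 CPM in AtWTtr and 25, 52.8 and 69.2 in AtBDtr (-1.12, SE 0.37). In all 3 genes AtWTtr2 lay within the range of the AtBDtr libraries and AtBDtr1 was the lowest of the 6. The median was -0.79 without AtBDtr1, -1.55 without AtWTtr2, and -0.49 without both ends of the first component, with 1 of 43 members above 0. In AtBD against AtWT, too, 0 of 43 were above 0, with a median of -0.48 and none called. The late maturation genes also differed between the libraries, with the levels given above, and the part of seed stage in the medians was not tested. In bulk seeds, fewer cells of a type and less RNA per cell cannot be told apart.

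Rubisco and Calvin cycle genes had a median of -0.68 and 0 of 14 above 0, beside -0.47 and 0 of 14 in AtBD against AtWT. All 14 were lowest in AtBDtr1, so these members are not independent of each other either. Rubisco activase RCA (AT2G39730), which frees inhibited Rubisco sites, had 75.4, 46.7 and 84.0 CPM in AtWTtr and 24.7, 38.9 and 37.1 in AtBDtr, without overlap (-1.03, SE 0.24, edgeR adjusted p = 0.682). RBCS3B, a Rubisco small subunit whose copies may share reads, had 15.4, 8.28 and 29.3 CPM in AtWTtr and 1.56, 5.31 and 7.88 in AtBDtr, again without overlap (-1.82, SE 0.50, edgeR adjusted p = 0.736). These were 2 non-overlapping members of 14, both lower. This is 14.3%, against 2.94% of all genes on the lower side and 7.19% in either direction. Outside the calls, 8 genes on the lower side had the smallest p at a mean log2 CPM of at least 2 without overlap. RCA, LQY1, GGT1, CRB and KCS2 were among them. LQY1 acts in repair of photosystem II. GGT1, the glutamate glyoxylate aminotransferase of photorespiration, had 67.0, 46.2 and 58.5 CPM in AtWTtr and 28.1, 39.2 and 34.5 in AtBDtr (-0.75, SE 0.18). CRB, a chloroplast RNA-binding protein, had 18.0, 13.9 and 15.9 CPM in AtWTtr and 7.27, 6.29 and 10.3 in AtBDtr (-1.0, SE 0.24). Neither passed the threshold (edgeR adjusted p = 0.704 each). KCS2, a ketoacyl-CoA synthase of very-long-chain fatty acids, had 8.95, 9.44 and 6.43 CPM in AtWTtr and 2.82, 3.98 and 5.57 in AtBDtr (-0.99, SE 0.24).

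**Figure D4:**
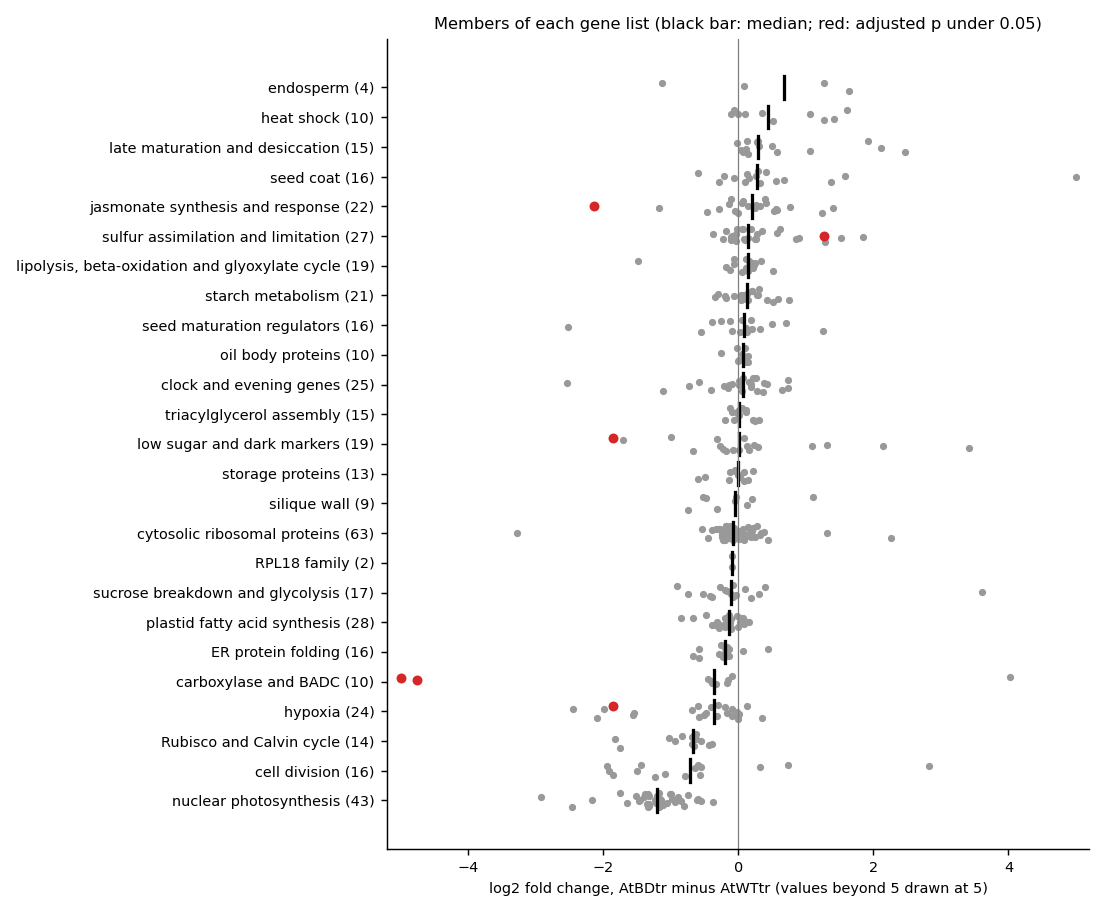
Log2 fold change of AtBDtr minus AtWTtr for every tested member of 25 gene lists (number tested in brackets), with the list median as a black bar and called genes in red. Photosynthesis and Calvin cycle members all lie left of 0, while storage, oil body and triacylglycerol assembly members gather at 0.

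The lists of the oil pathway itself had medians near 0. The 28 genes of plastid fatty acid synthesis had a median of -0.14 with 7 above 0 and none called, and 20 of the 28 were lowest in AtBDtr1. The sign of the median turned with the libraries: it was 0.055 with 17 above 0 without AtBDtr1, -0.34 with 1 above 0 without AtWTtr2, and 0.12 with 26 above 0 without both ends of the first component. Of these, ACP4, an acyl carrier protein, had 13.9, 12.7 and 13.3 CPM in AtWTtr and 7.98, 11.5 and 5.51 in AtBDtr (-0.68, SE 0.27, edgeR adjusted p = 0.978). The 15 genes of triacylglycerol assembly had a median of 0.01 with 9 above 0, and the groups overlapped for all 15. DGAT1, which makes the last bond of triacylglycerol, varied little, with 111, 108 and 99.4 CPM in AtWTtr and 102, 104 and 115 in AtBDtr (chosen after its values were seen). FAD3, the desaturase that makes linolenic acid, had a log2 fold change of 0.24 (SE 0.19). Over the 10 oil body genes the median was 0.07, and the oleosin OLEO1 had 28610, 43250 and 53460 CPM in AtWTtr and 53860, 53430 and 31470 in AtBDtr, with a range within each group that covered the other.

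The 13 storage protein genes took 43.4% to 51.1% of the counts of an AtWTtr library and 43.4% to 49.8% of an AtBDtr library, with a median log2 fold change of 0.00. SESA1, a 2S albumin whose copies may share reads, had 9739, 9578 and 11610 CPM in AtWTtr and 7456, 9241 and 5303 in AtBDtr, without overlap (-0.49, SE 0.25, edgeR adjusted p = 0.978). In AtBD against AtWT all 13 were above 0 with a median of 0.58, and so were all 10 oil body genes, with 0.64, where the difference between the 2 genotype effects was called for no gene. The regulators of maturation had a median of 0.08 over 16 genes. WRI1, the factor that drives the genes of glycolysis and fatty acid synthesis in seeds, had 165, 116 and 184 CPM in AtWTtr and 105, 180 and 152 in AtBDtr (chosen after its values were seen), where AtWTtr2 and AtBDtr1 were again low.

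DFR (AT5G42800), dihydroflavonol reductase of the seed coat's tannin pathway, came closest to the threshold from outside. It had 1.37, 1.09 and 2.31 CPM in AtWTtr and 5.01, 4.84 and 4.41 in AtBDtr, with no overlap, a log2 fold change of 1.58 (SE 0.28) and an edgeR adjusted p of 0.0565. The seed coat list as a whole had a median of 0.27 with 12 of 16 tested members above 0 and none called. Its summed level, given above, overlapped between the groups, and its part in the DFR values was not tested. On the higher side, 8 genes outside the calls had the smallest p at a mean log2 CPM of at least 2 without overlap. Their log2 fold changes were 0.66 to 1.31 and their edgeR adjusted p 0.704 to 0.736. DFR was not among them. PRH75 (AT5G62190), a DEAD box RNA helicase, had 40.7, 38.5 and 38.2 CPM in AtWTtr and 57.4, 60.1 and 68.2 in AtBDtr. HBT (AT2G20000), a CDC27 subunit of the anaphase-promoting complex, had 7.59, 8.09 and 10.1 CPM in AtWTtr and 14.8, 14.9 and 14.2 in AtBDtr. Both sets of 3 were tight and apart, but neither passed.

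**Figure D5:**
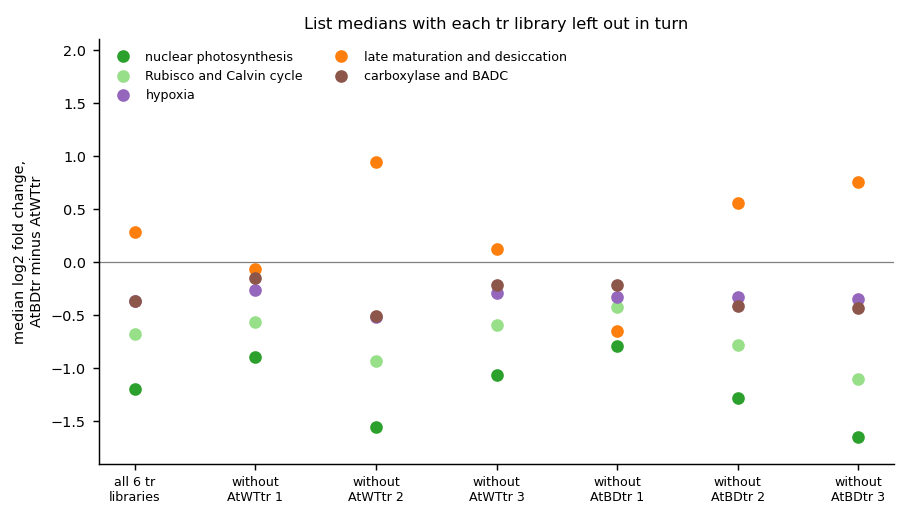
Median log2 fold change of AtBDtr minus AtWTtr for 5 gene lists with all 6 tr libraries and with each library left out in turn. The photosynthesis, Calvin cycle, hypoxia and carboxylase medians stay below 0 throughout, and that of late maturation runs from -0.65 without AtBDtr1 to 0.94 without AtWTtr2. The carboxylase list includes the knocked-out BADC1 and BADC3.

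Late maturation genes, with a median of 0.29 and 14 of 15 above 0, had no member without overlap and none called. The median fell to -0.65 without AtBDtr1 and to -0.06 without AtWTtr1, and it was 0.94 without AtWTtr2. Without both ends of the first component it was -1.01, with 0 of 15 above 0. The sign of this list's median changed with the libraries that entered. Heat shock genes had a median of 0.43 in all libraries, -0.42 without AtBDtr1 and -0.43 without both ends. Cell division genes had a median of -0.72, and 0.49 without both ends.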

How the data were processed

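PolyA RNA of 12 libraries was used: 3 each of AtWT, AtBD, AtWTtr and AtBDtr. The authors deposited raw counts per gene as a table of whole numbers with no normalization; TopHat, Cufflinks, Cuffdiff and TAIR10 are named in the submitters' processing notes, while the table equals the unstranded column of deposited count files in the layout of STAR. Counts split evenly over the strands, so reads of a gene and of an overlapping or antisense partner cannot be separated. Coordinates and names come from RefSeq's TAIR10.1, matched by identifier (32835 of 33602 loci).

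Counts were fitted with edgeR 4.0.16 in R 4.3.3: filterByExpr, TMM, 1 coefficient per group over 12 libraries, and the robust quasi-likelihood test with no fold minimum. After TMM scaling the CPM of a library need not sum to the same total in each. The script was tested on simulated data. Alternatives used limma 3.58.1 and DESeq2 1.42.0. Named genes are all calls, the 8 genes per direction with the smallest p outside the calls (mean log2 CPM of at least 2, no overlap), all carboxylase and RPL18 genes, the 3 genes per list with the smallest p and, per library, the 4 genes furthest above and below both sisters (mean log2 CPM of at least 5). The members, lists and rules were chosen with earlier results of these data known. Deviations of same-numbered libraries correlated above 0.1 in 0 of 3 pairs. The FPKM table of the other 6 samples was not used here.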

Additional observations from a re-analysis of the deposited data

How the results depend on the processing

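The count of 10 called genes was 19 with DESeq2 (which kept all 10), 5 with limma voom and library quality weights, 5 with only the 6 tr libraries, and 7 to 13 when 1 tr library was left out. With the replicate number as a block it was 7 over 12 libraries and 5 over the 6 tr libraries; the numbers were not shown to pair the libraries, and no AtBDtr library correlated best with its own number. BADC1, BADC3, CAD1 and AT2G06950 were called under all 18 alternatives, with a highest adjusted p of 0.00538. AT5G35935 lost the call in 1 (adjusted p = 0.632 with voom), AT2G41640 in 3, AGL87 in 4, AT4G27450 and VSP1 in 10 each and SERAT1;1 in 11; the highest adjusted p were 0.171 for AT2G41640, 0.9998 for AGL87, AT4G27450 and SERAT1;1, and 0.9999 for VSP1. Once genes under a mean log2 CPM of 5 were left out, the median SD fell in all 4 groups, to 0.270 in AtWTtr and 0.260 in AtBDtr and to 0.186 in AtWT and 0.156 in AtBD, so the tr groups stayed the wider ones. With the block over only the tr libraries HSP17.4 turned to -0.38 and EM6 to -0.66. Leaving out 1 library moved the log2 fold change across 0 for M10 (-0.49 to 3.29), ECP31 (-0.65 to 3.01), EM6 (-1.43 to 3.76), HSP17.4 (-1.06 to 2.09), BADC2 (-0.37 to 0.072), CAC2 (-0.38 to 0.093), CAC3 (-0.32 to 0.076), GLB1 (-0.61 to 0.0045), OLEO1 (-0.080 to 0.37), CLO1 (-0.052 to 0.27), VCL3 (-0.97 to 0.086), RPL18B (-0.24 to 0.15) and RPL18C (-0.20 to 0.039). Removing robust moderation, rRNA genes or the libraries at both ends of the first component was added after the data had been seen. The causes were not tested.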

Other observations

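Among the genes that stood furthest from both sister libraries, XTH25, an enzyme that remodels xyloglucan, had 276, 3016 and 1261 CPM in AtWTtr and 4221, 1416 and 385 in AtBDtr. AT1G54870, annotated as a Rossmann-fold oxidoreductase, had 220, 1712 and 1188 CPM in AtWTtr and 3010, 1085 and 268 in AtBDtr. AT4G30880, annotated as a lipid-transfer protein, ran opposite with 255, 30 and 149 CPM in AtWTtr and 4.07, 31.3 and 109 in AtBDtr. Of 3272 genes compared, 57 lay over 2-fold above and 93 over 2-fold below both sisters in AtBDtr1, against 1 and 0 in AtBDtr2. GRP7, a clock-regulated RNA-binding protein, had 835, 402 and 183 CPM in AtWTtr and 501, 462 and 888 in AtBDtr, an order unlike that of the late maturation genes.

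The ribosomal RNA gene AT3G41768 ran from 2002 CPM in AtBDtr3 to 41650 in AtBDtr1, and the share of multi-mapping reads from 1.4% to 13.8% in the same libraries. ER folding genes had a median of -0.20 with 2 of 16 above 0, and starch genes a median of 0.12 with 16 of 21 above 0, neither with a call. ISA3, a starch debranching enzyme, had 73.3, 86.3 and 57.8 CPM in AtWTtr and 109, 100 and 103 in AtBDtr, without overlap (0.52, SE 0.19, edgeR adjusted p = 0.977). PMDH2, a peroxisomal malate dehydrogenase, had 22.1, 10.1 and 10.7 CPM in AtWTtr and 1.8, 6.86 and 6.45 in AtBDtr, also without overlap (-1.48, SE 0.41, edgeR adjusted p = 0.736).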
